A study of Homo sapiens with 4 samples.

Results

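The RNA that came down with a YTHDF3 antibody from YTHDF3 knockout SiHa cells was set against the RNA that came down from SiHa cells, an established human cervical carcinoma line. Each side was 1 immunoprecipitate (IP) library, and each cell line also had 1 input library of RNA that was not precipitated, so the data held 4 libraries: knockout IP, knockout input, SiHa IP and SiHa input. The labels call all of them cervical cancer cells, with no clone number, passage or treatment given. The compared genes were those in both of the authors' deposited tables, 2083 of the 3905 genes in either table. The knockout table held 2340 genes, of which 89.0% were shared, and the SiHa table held 3648, of which 57.1% were shared. For each shared gene the log2 ratio of knockout IP level over SiHa IP level was taken, and the median of that ratio over all shared genes was subtracted. With 1 library per group there was no replicate error, no test was possible, and every difference below is a difference between libraries.

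YTHDF3 is a cytoplasmic protein that reads N6-methyladenosine (m6A), a methyl mark placed on adenosines of messenger RNA by a nuclear writer complex. It works beside its paralogs YTHDF1 and YTHDF2 and is known for effects on translation and decay of marked mRNAs. In RNA immunoprecipitation an antibody pulls a protein out of a cell lysate with the RNA bound to it, so an IP level depends on how much of a transcript the cell holds and on how much of it is recovered. The input library measures the amount of the transcript alone. In the cells labelled as knockout the antibody's target should be lacking. These data do not measure how much of the protein was left there, or how much RNA came down without it. A precipitation with another antibody was not analysed here.

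The targeted gene was in the SiHa table, where YTHDF3 had 25.8 in IP and 11.7 in input. The knockout table does not hold it, so its level in the knockout libraries is unknown and it had no ratio. YTHDF1 and YTHDF2 were likewise listed for SiHa only, at IP levels of 33.2 and 31.8. Both tables held only genes that the authors had called enriched, and absence from a table gives no level. Of 12 squamous and cervical epithelial markers in either table, 11 were listed for SiHa, 4 for the knockout and 3 for both. Over all 3905 genes in either table, 3648 were listed for SiHa, 2340 for the knockout and 2083 for both. The shared markers included KRT17, a keratin of stratified epithelia, and DSP, the desmosomal plaque protein. A neuronal gene, MAP2, was the listed member among markers of other cell types, with IP levels of 10.4 in the knockout and 6.13 in SiHa.

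Levels are in the unit of the deposited tables, which is not stated. Their depth is unknown, so no counting interval could be given. The median IP level of shared genes was 26.7 in the knockout and 30.4 in SiHa, and the median input level was 8.66 in the knockout and 12.5 in SiHa. Before centring, the median log2 ratio was -0.12 for IP and -0.52 for input. All ratios below are relative to these medians, and zero stands for the median shared gene. Scaling to the library totals that the deposited p-values imply would move every gene down by a further constant, to a median of -0.63 for IP and -0.84 for input. Such a constant leaves the order of the genes as it is and moves the counts.

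After centring, 288 genes were at least 2-fold higher in the knockout IP (13.8% of shared genes) and 272 were at least 2-fold lower (13.1%). Higher genes thus made up 51.4% of these calls. With no centring the counts were 229 higher and 342 lower (40.1% higher), and with scaling to the implied totals they were 78 higher and 720 lower (9.77% higher). The quartiles of the centred log2 IP ratio were -0.59 and 0.62, and its range was -4.002 to 5.26.

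IP and input ratios ran together across genes. In the input libraries 184 shared genes (8.83%) were at least 2-fold higher in the knockout and 236 (11.3%) were at least 2-fold lower. Across the 2083 genes the centred IP and input ratios had a Spearman rho of 0.69 and a Pearson r of 0.75, given as a description because genes are not independent replicates. Of the 288 genes higher in the knockout IP, 102 (35.4%) were also at least 2-fold higher in input and 0 were 2-fold lower. Of the 272 genes lower in the knockout IP, 144 (52.9%) were also at least 2-fold lower in input and 0 were 2-fold higher. The listing rule fixes part of this relation. Every shared gene had to pass an IP over input threshold in each table, and the lowest ratio of IP level to input level among shared genes was 1.14 in the knockout and 1.02 in SiHa. A gene whose knockout IP level was under that threshold had no ratio here.

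**Figure D1:**
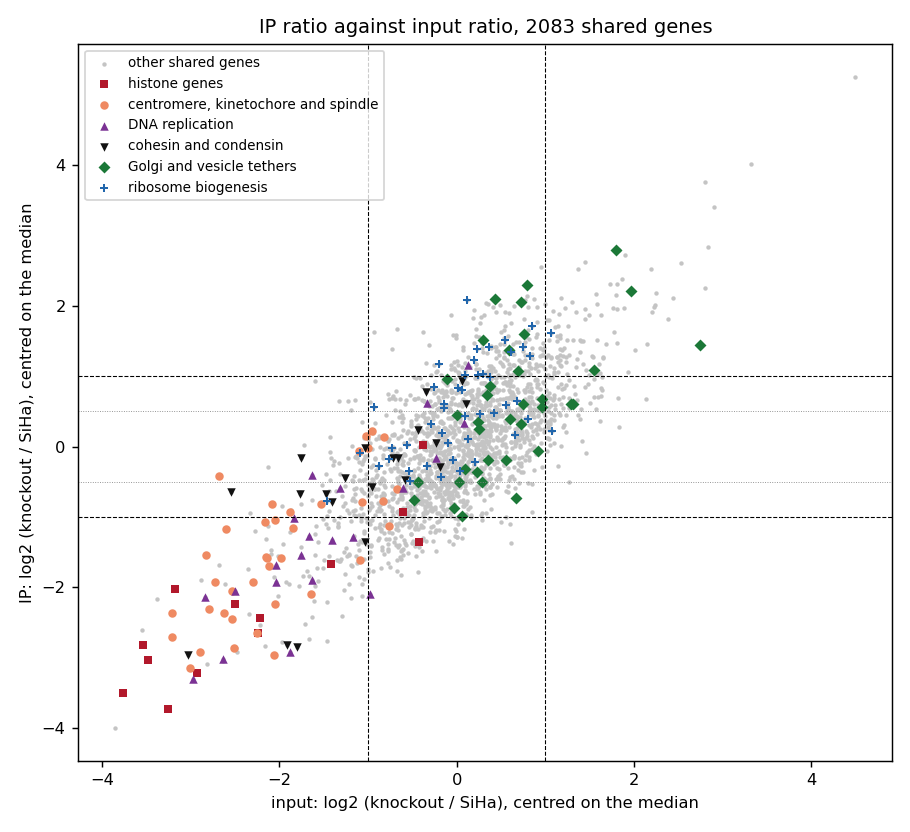
Each point is a gene; the vertical axis is the log2 ratio of knockout over SiHa in IP and the horizontal axis the same ratio in input, each centred on its median over 2083 shared genes, with dashed lines at the 2-fold limits and dotted lines at 0.5 to either side of zero for IP. Histone, spindle and DNA replication genes (coloured) lie at the lower left, Golgi tethers and ribosome biogenesis genes mostly above zero in IP, and the upper left and lower right corners hold no gene past both 2-fold limits.

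Many of the lowest genes were cell division genes. Replication-dependent histone genes supply the histones that package new DNA, the MCM proteins form the helicase that opens replication origins, and kinesins and kinetochore proteins move and hold chromosomes in mitosis. These genes are known to be made in waves during S phase and G2. Across 5 lists of histone, DNA replication, centromere and spindle, cyclin and checkpoint, and cohesin and condensin genes, 104 were shared (4.99% of shared genes). They held 63 of the 272 genes at least 2-fold lower in the knockout IP (23.2%) and 1 of the 288 genes at least 2-fold higher (0.347%). Among the 50 lowest genes of all, 35 came from these lists, and among the 50 highest, 0 did. The lists were chosen with earlier results of these data known, so these counts are a description.

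Histone genes stood far below the median gene. Of 13 shared members of 22 in either table, 11 were at least 2-fold lower in the knockout IP. That was 84.6%, against 13.1% of all shared genes. Higher members numbered 0 (against 13.8%). The median centred log2 ratio was -2.43 in IP and -2.50 in input. HIST1H2BM (chromosome 6, 27815022 to 27815489 in GRCh38.p14), a core histone H2B gene of the histone cluster on that chromosome, had an IP level of 23.2 in the knockout and 334 in SiHa, 13.2-fold lower after centring. Its input level was 10.4 in the knockout and 143 in SiHa. H1F0, a linker histone gene, had an IP level of 29.9 in the knockout and 369 in SiHa, with input levels of 6.73 in the knockout and 132 in SiHa. Both genes thus stood far lower in the knockout on both sides of the precipitation. HIST1H1D, another linker histone gene, had an IP level of 40.6 in the knockout and 311 in SiHa. HIST1H1C, by contrast, had nearly equal IP levels of 988 in the knockout and 1054 in SiHa, a centred log2 ratio of 0.03. H2AFY, which encodes the replacement histone macroH2A, was at -0.93. Many histone genes are near-identical copies, so reads may have been split among those and the value of any such copy is uncertain. The libraries were made with an mRNA kit, and how fully it recovered histone RNA was not tested.

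Most shared DNA replication genes were lower too. Of 21 shared members of 28, 14 were at least 2-fold lower in the knockout IP (66.7%, against 13.1% of all shared genes). In the other direction 1 was higher (4.76%, against 13.8%). The medians were -1.32 in IP and -1.64 in input. Among the helicase subunits, MCM7 had an IP level of 9.12 in the knockout and 97.8 in SiHa. MCM4 had 66.3 in the knockout and 582 in SiHa. MCM6 had 10.3 in the knockout and 85.0 in SiHa. MCM3, a further subunit, was less far down at a centred log2 ratio of -1.28. PCNA, the sliding clamp of DNA polymerases, had an IP level of 35.8 in the knockout and 167 in SiHa. TOP2A, the topoisomerase that untangles sister chromatids, had an IP level of 144 in the knockout and 651 in SiHa. Its paralog TOP2B, which is not tied to division, was at 0.33, and TOP1, the member above the 2-fold limit, had an IP level of 379 in the knockout and 184 in SiHa. The lowest gene of all 2083 was TICRR, needed to fire replication origins, with an IP level of 5.498 in the knockout and 95.8 in SiHa.

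Centromere, kinetochore and spindle genes formed the largest of these groups. Of 38 shared members of 49, 26 were at least 2-fold lower in the knockout IP (68.4%, against 13.1% of all shared genes). Higher members numbered 0 (against 13.8%), and 35 lay below the median shared gene. KIF11, the kinesin that pushes spindle poles apart, had an IP level of 14.1 in the knockout and 116.0 in SiHa. KIF20A, a kinesin of cytokinesis, had 41.3 in the knockout and 328 in SiHa. BUB1, a checkpoint kinase at kinetochores, had 8.24 in the knockout and 79.5 in SiHa. The group median was -1.58 in IP and -2.10 in input, so its input was lower still than its IP. TPX2, which activates the kinase Aurora A on the spindle, showed such a gap: its IP level was 323 in the knockout and 781 in SiHa, and its input level was 23.3 in the knockout and 120.4 in SiHa. CENPF, a kinetochore protein, was at -1.17 in IP and -2.60 in input.

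Cyclins, kinases and checkpoint regulators had the lowest IP median of the 39 lists with 5 or more shared members, -2.60, with -1.74 in input. Of 11 shared members (25 in either table), 8 were at least 2-fold lower in the knockout IP. That was 72.7%, against 13.1% of all shared genes, and 0 were higher (against 13.8%). CCNB1, the mitotic cyclin B, had an IP level of 28.0 in the knockout and 206 in SiHa. MYBL2 and FOXM1, transcription factors of S phase and G2, stood at -3.09 and -2.74. MKI67, the proliferation antigen Ki-67, had an IP level of 149 in the knockout and 986 in SiHa, with an input level of 11.2 in the knockout and 189 in SiHa. Its input was thus 11.7-fold lower and its IP 6.07-fold lower after centring. The 3 members nearest to or above the median gene were GMNN, the licensing inhibitor geminin, at -0.03, RB1, the retinoblastoma protein, at 0.21, and PLK2, a stress-responsive kinase, at 0.35. In bulk libraries fewer dividing cells and less RNA per dividing cell cannot be told apart, and the part of cell cycle state in these values was not tested.

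Cohesin and condensin genes spread widely. NCAPD2 and NCAPD3, non-SMC subunits of the condensins that compact mitotic chromosomes, had IP levels of 14.1 and 13.5 in the knockout, against 109 and 105 in SiHa. SMC3 and RAD21, core parts of the cohesin ring, were at -0.16 each. Of 21 shared cohesin, condensin and related genes, 4 were at least 2-fold lower in the knockout IP (19.0%, against 13.1% of all shared genes). In IP 0 were higher, while 11 were at least 2-fold lower in input (against 11.3% of all shared genes). The list median was -0.45 in IP and -1.04 in input.

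**Figure D2:**
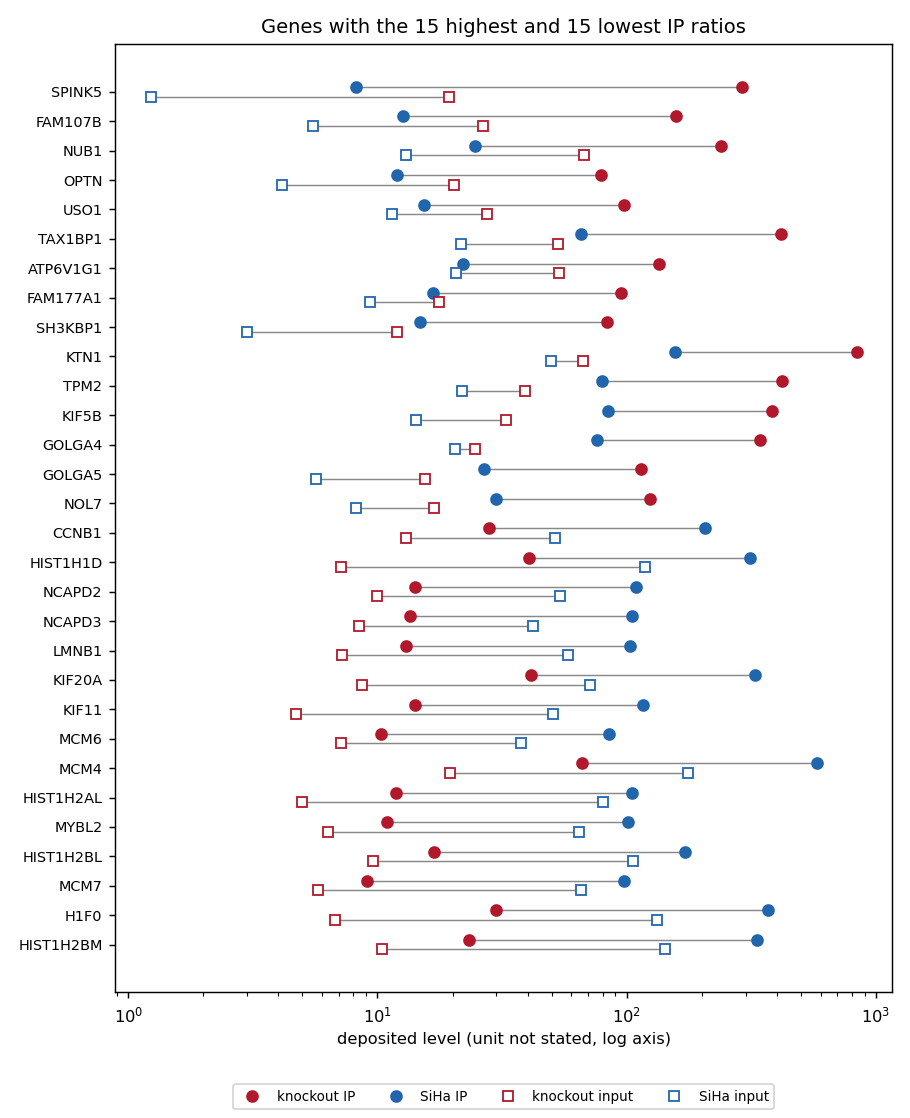
Deposited levels on a log axis for the 15 highest and 15 lowest centred IP ratios among shared genes at or above the median IP level; filled circles are IP, open squares input, red the knockout and blue SiHa. In the 15 genes from SPINK5 to NOL7 both knockout symbols lie right of their SiHa symbols, and in the 15 genes from CCNB1 to HIST1H2BM both lie left of them.

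The 300 bases around the first listed RefSeq start of 6 of these genes are shown because division genes are known to share short promoter elements, and the members at the low end were lower together. Each runs from 250 bases before the start to 50 after it, on the gene's own strand, in GRCh38.p14. HIST1H2BM is the lowest histone gene (RefSeq name H2BC14, chr6:27814772-27815071, plus strand), MKI67 (chr10:128126374-128126673, minus strand) and NUSAP1, a spindle protein gene (chr15:41332631-41332930, plus strand), stand for mitosis, and MCM7 (chr7:100101348-100101647, minus strand) for replication. GOLGB1 (chr3:121749692-121749991, minus strand) stands for the high end, and SMC3 (chr10:110567445-110567744, plus strand) for genes whose IP level was kept. Capitals mark 4 motifs on either strand: CCAAT, the box bound by the factor NF-Y; TTTGAA, the core of the cell cycle genes homology region; and GCGGGAA and TTTGGCGC, forms of the E2F site.
HIST1H2BM: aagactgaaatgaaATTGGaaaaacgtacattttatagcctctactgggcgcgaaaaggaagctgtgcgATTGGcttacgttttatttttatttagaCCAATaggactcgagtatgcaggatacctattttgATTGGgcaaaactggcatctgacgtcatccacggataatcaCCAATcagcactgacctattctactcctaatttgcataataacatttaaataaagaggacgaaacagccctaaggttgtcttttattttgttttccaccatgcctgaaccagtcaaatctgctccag
MKI67: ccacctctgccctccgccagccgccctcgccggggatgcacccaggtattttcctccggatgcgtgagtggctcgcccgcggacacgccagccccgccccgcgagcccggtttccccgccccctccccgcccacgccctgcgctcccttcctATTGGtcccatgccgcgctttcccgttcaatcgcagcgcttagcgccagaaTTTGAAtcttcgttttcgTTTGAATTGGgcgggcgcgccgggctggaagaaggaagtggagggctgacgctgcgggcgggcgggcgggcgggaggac
NUSAP1: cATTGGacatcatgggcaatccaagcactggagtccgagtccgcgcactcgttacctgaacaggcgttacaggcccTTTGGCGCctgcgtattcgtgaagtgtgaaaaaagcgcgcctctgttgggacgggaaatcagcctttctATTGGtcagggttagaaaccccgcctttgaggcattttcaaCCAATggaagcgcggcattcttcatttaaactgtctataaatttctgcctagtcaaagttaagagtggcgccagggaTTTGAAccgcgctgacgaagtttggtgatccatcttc
MCM7: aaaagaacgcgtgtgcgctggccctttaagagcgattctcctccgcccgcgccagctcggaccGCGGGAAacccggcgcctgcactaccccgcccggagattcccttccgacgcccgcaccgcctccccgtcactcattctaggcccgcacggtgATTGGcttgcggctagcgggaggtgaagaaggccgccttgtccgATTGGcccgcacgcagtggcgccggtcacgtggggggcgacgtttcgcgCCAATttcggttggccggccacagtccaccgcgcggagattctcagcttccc
GOLGB1: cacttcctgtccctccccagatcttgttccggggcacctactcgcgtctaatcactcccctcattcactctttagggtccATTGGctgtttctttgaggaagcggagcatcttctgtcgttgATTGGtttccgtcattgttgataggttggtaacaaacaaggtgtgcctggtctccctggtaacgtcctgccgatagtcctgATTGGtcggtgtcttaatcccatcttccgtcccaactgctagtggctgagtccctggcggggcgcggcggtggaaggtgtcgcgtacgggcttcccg
SMC3: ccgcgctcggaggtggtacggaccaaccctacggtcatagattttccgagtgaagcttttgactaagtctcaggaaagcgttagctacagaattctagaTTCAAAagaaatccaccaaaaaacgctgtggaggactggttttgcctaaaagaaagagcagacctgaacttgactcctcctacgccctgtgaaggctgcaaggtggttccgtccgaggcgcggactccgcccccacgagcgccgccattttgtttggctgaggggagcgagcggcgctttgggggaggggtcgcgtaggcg
HIST1H2BM held 5 CCAAT boxes, MKI67 held 2 with 2 TTTGAA cores, 1 of which overlapped a CCAAT on the other strand, and NUSAP1 held 3 with 1 TTTGAA and 1 TTTGGCGC. MCM7 held 3 CCAAT boxes and 1 GCGGGAA. GOLGB1, at the other end, also held 3 CCAAT boxes, and SMC3 held 1 TTTGAA and no CCAAT.

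Counted over all promoters of this kind, CCAAT was in 35.7% of 27305 RefSeq genes and in 38.2% of the 1724 shared genes with a promoter in the table. It was in 52.8% of 233 genes at least 2-fold lower in the knockout IP and in 35.3% of 235 genes at least 2-fold higher. Without histone genes the share among lower genes was 51.1%. By list, 9 of 10 histone promoters held it, 69.7% of 33 spindle promoters and 63.2% of 19 replication promoters. TTTGAA was in 15.4% of RefSeq promoters, 11.1% of shared ones, 20.2% of the lower genes and 13.6% of the higher genes. It was in 25 of 33 spindle promoters, 2 of 10 histone promoters and 1 of 19 replication promoters. GCGGGAA was in 6.56% of RefSeq promoters, 10.4% of shared ones, 12.4% of the lower genes and 10.2% of the higher genes. It was in 8 of 19 replication promoters, 2 of 33 spindle promoters and 0 of 10 histone promoters. TTTGGCGC was in 0.659% of RefSeq promoters, 2.09% of shared ones, 3.86% of the lower genes, 2.13% of the higher genes and 3 of 19 replication promoters. Among genes whose IP level was kept while input was lower, 11 of 33 promoters held CCAAT and 7 held TTTGAA. The motifs were chosen with the low end known, and a match says only that the letters are there.

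**Figure D3:**
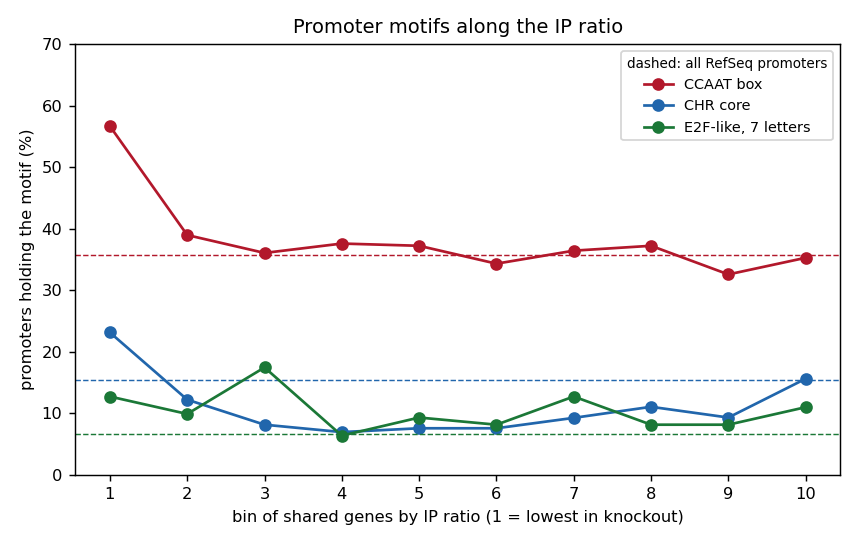
Share of promoters (percent, 300 bases) with the CCAAT box, the TTTGAA core or the GCGGGAA form in 10 equal bins of the 1724 shared genes ordered by centred IP ratio, bin 1 lowest in the knockout; dashed lines give the share over all RefSeq promoters. The lowest bin stands apart for CCAAT at 56.6% and for TTTGAA at 23.1%, against 35.3% and 15.6% in the highest bin.

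The leading genes of the high end came from varied classes. SPINK5 (chromosome 5, 148063980 to 148137382), a serine protease inhibitor of stratified epithelia, was the highest of all genes, with an IP level of 289 in the knockout and 8.23 in SiHa and an input level of 19.3 in the knockout and 1.23 in SiHa. After centring it was 38.2-fold higher in IP and 22.6-fold higher in input. Its SiHa input level was near the lowest among shared genes, 1.07, so the size of the input fold is uncertain. FAM107B had an IP level of 158 in the knockout and 12.6 in SiHa. NUB1, which lowers the ubiquitin-like protein NEDD8, had 239 in the knockout and 24.6 in SiHa. The autophagy receptors OPTN and TAX1BP1, which link ubiquitinated cargo to autophagosomes, were both among the 15 highest genes. OPTN had an IP level of 78.9 in the knockout and 12.01 in SiHa, and TAX1BP1 had 416 in the knockout and 65.5 in SiHa. MDM2, the ubiquitin ligase of p53, had an IP level of 49.3 in the knockout and 11.3 in SiHa, and its input level was 28.0 in the knockout and 5.78 in SiHa. HIF1A, the oxygen-regulated transcription factor, had an IP level of 1013 in the knockout and 272 in SiHa, and TGFB2, a growth factor, had 160.4 in the knockout and 46.2 in SiHa. In all of these genes the input level was higher in the knockout too.

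Golgi and vesicle tethers lay mostly above the median gene. Golgins are long coiled-coil proteins that catch vesicles at the Golgi, and COP proteins coat them. Of 36 shared members of 47, 11 were at least 2-fold higher in the knockout IP (30.6%, against 13.8% of all shared genes). In the same list 0 were lower (against 13.1%) and 24 lay above the median gene. The group median was 0.58 in IP and 0.57 in input, and -0.05 in IP with scaling to the implied totals. USO1, the tether p115, had an IP level of 97.6 in the knockout and 15.3 in SiHa. GOLGA4 had 343 in the knockout and 76.1 in SiHa. GOLGB1, giantin, had 223 in the knockout and 56.5 in SiHa, while its input level was 20.5 in the knockout and 21.8 in SiHa, a centred log2 input ratio of 0.44. TRIP11, the golgin GMAP-210, had an IP level of 105 in the knockout and 27.6 in SiHa with input levels of 9.23 in the knockout and 8.02 in SiHa. GOLGA5, in contrast, stood at 2.21 in IP and 1.97 in input. The VPS13 lipid transfer proteins of this list were below the median gene, from -0.98 for VPS13D to -0.36 for VPS13C.

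Genes of the endoplasmic reticulum were split. Of 22 shared members of 29, 8 were at least 2-fold higher in the knockout IP (36.4%, against 13.8% of all shared genes). A further 3 were lower (13.6%, near the 13.1% of all shared genes), and the median was -0.05. KTN1 (chromosome 14, 55580207 to 55684584), kinectin, which anchors kinesin to the membrane, had an IP level of 839 in the knockout and 156 in SiHa, and input levels of 66.8 in the knockout and 49.9 in SiHa. SEC63, part of the translocation machinery, had an IP level of 60.7 in the knockout and 17.5 in SiHa and input levels of 17.02 in the knockout and 16.8 in SiHa, a centred log2 input ratio of 0.54. Of the 3 signal recognition particle genes in the list, SRP14 and SRP72 were at 1.20 and 1.07, and SRP68 was at -0.05. Chaperones and lectins of this compartment were spread: HYOU1 was at -1.07, CALR at -0.55, CANX at -0.11, HSPA5, the chaperone BiP, at 0.42, its co-chaperone DNAJC3 at 1.27 and ERLEC1 at 1.96. HSP90B1, the luminal HSP90, had an IP level of 2801 in the knockout and 2310 in SiHa, a centred log2 ratio of 0.40 with -0.32 in input. UGGT1, the folding sensor of glycoproteins, had an IP level of 18.5 in the knockout and 53.96 in SiHa.

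Ribosome biogenesis and nucleolar genes stood above the median gene with input near it. Of 46 shared members of 60, 14 were at least 2-fold higher in the knockout IP (30.4%, against 13.8% of all shared genes). In the same list 0 were lower (against 13.1%) and 34 lay above the median gene. The median was 0.51 in IP and 0.09 in input, and -0.12 in IP with scaling to the implied totals. ESF1, a nucleolar factor, had an IP level of 53.5 in the knockout and 13.8 in SiHa, with input levels of 5.08 in the knockout and 6.73 in SiHa. NOP14, of the small subunit processome, had an IP level of 102 in the knockout and 38.8 in SiHa, and MPHOSPH10, of the same complex, had 67.9 in the knockout and 28.1 in SiHa. BMS1, a GTPase of the small subunit pathway, stood at 1.23 in IP and 0.20 in input. TCOF1, the nucleolar protein treacle, was the lowest member at -0.78.

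Translation factors and aminoacyl-tRNA synthetases also had medians above the median gene. Of 23 shared translation factor genes (39 in either table), 7 were at least 2-fold higher in the knockout IP (30.4%, against 13.8% of all shared genes). One member, 1 of 23, was lower (4.35%, against 13.1%). The median was 0.39 in IP and 0.52 in input, and -0.24 in IP with scaling to the implied totals. EIF2S2, the beta subunit of the initiation factor eIF2, had an IP level of 350.1 in the knockout and 97.7 in SiHa. EIF5B, which joins the ribosomal subunits, had 143 in the knockout and 72.3 in SiHa, with a centred log2 input ratio of -0.06. EEF2, the translocation factor of elongation, was the member below the 2-fold limit, with 294 in the knockout and 693 in SiHa. One of the higher entries, EIF2S2P4, is a pseudogene of EIF2S2 and its reads may come from the parent gene. Of 13 synthetases, 1 was at least 2-fold higher (7.69%, under the 13.8% of all shared genes), NARS, the asparaginyl-tRNA synthetase. In the other direction 0 were lower, against 13.1% of all shared genes. The synthetase median was 0.54 in IP and 0.67 in input, and -0.10 in IP with scaling to the implied totals. The genes named for coiled-coil domains (CCDC), grouped by name and not by function, had the highest median of the 39 lists, 0.72, with 9 of 20 shared members at least 2-fold higher and 0 lower. Together the Golgi, endoplasmic reticulum, nucleolar, translation, synthetase and CCDC lists held 160 shared genes (7.68%). They held 50 of the 288 higher genes (17.4%), 4 of the 272 lower genes (1.47%) and 11 of the 50 highest. These 6 of the 42 lists were joined to describe the high end, with earlier results of these data known, so the counts are a description. The list of HSP90, HSP70 and other chaperones was not among them. It had 7 of 29 shared members higher (24.1%, against 13.8%) and 0 lower (against 13.1%). DNAJC3, among those 7, was also in the endoplasmic reticulum list.

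**Figure D4:**
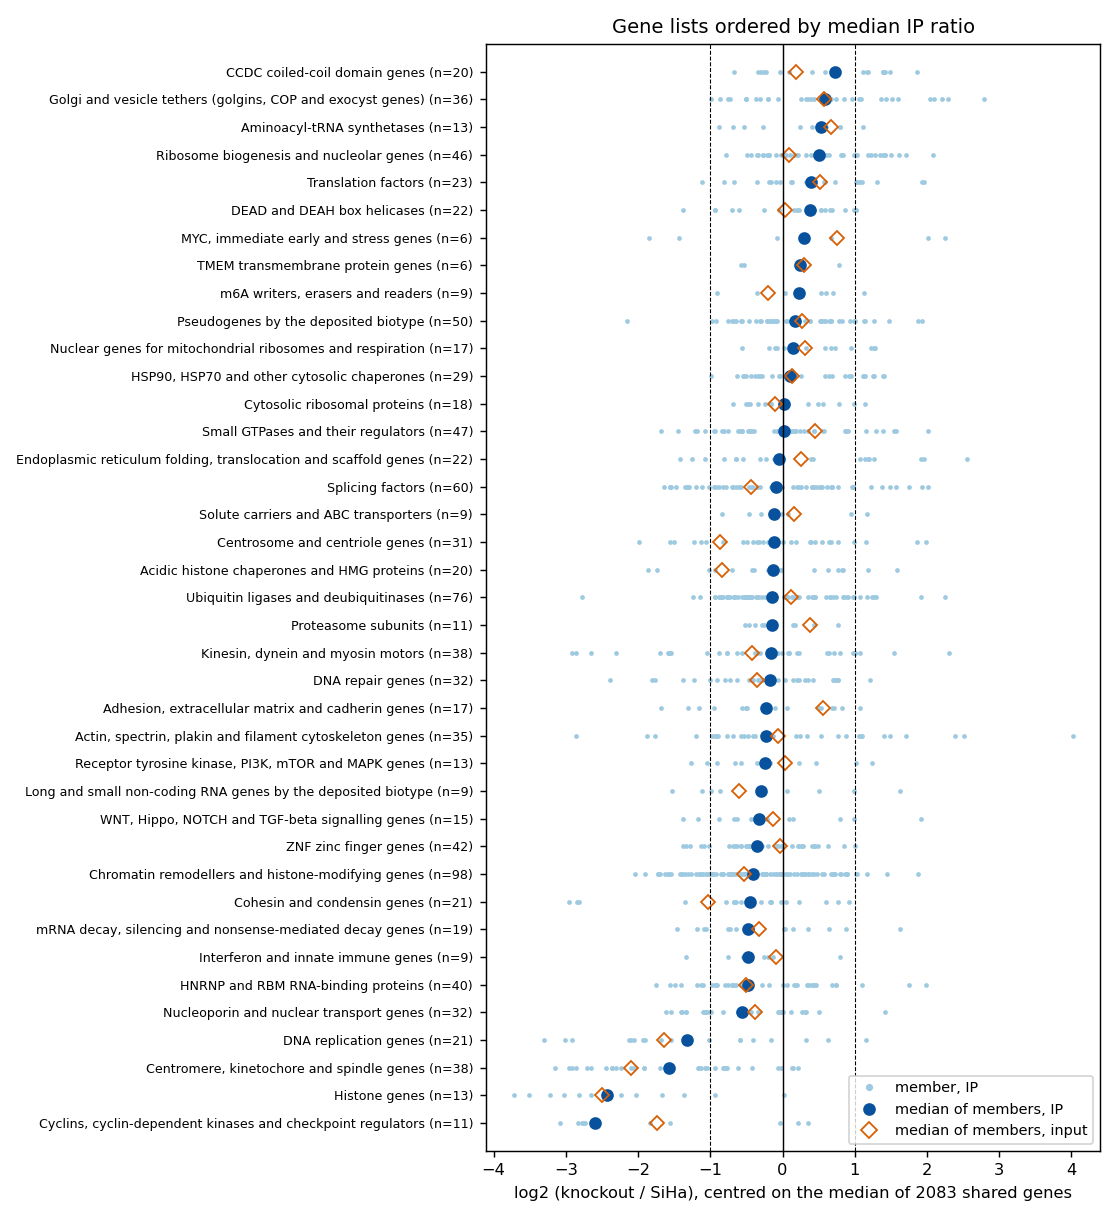
Centred log2 ratio of knockout over SiHa for each list with 5 or more shared members, ordered by median; small points are members in IP, filled circles the list median in IP and open diamonds the list median in input. The histone, DNA replication, spindle and cyclin lists stand at -1.32 or below in IP and apart from the rest. The cohesin and condensin list, at -0.45, lies among the other lists, and no list reaches a median of 1. With scaling to the implied totals all IP values move down by a constant. Every list median but that of the CCDC genes then lies below zero.

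Some genes kept their IP level while input differed. An IP level was called kept when the centred log2 IP ratio lay within 0.5 of zero, which held for 860 genes (41.3%). Of these, 42 had an input at least 2-fold lower in the knockout (2.02% of shared genes and 17.8% of all genes with lower input), and 33 had an input at least 2-fold higher (1.58% of shared genes and 17.9% of those with higher input). These counts rest on the centring: with no centring they were 130 and 3, and with scaling to the implied totals 136 and 2. Adding 1 to all levels gave 27 and 16.

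The 42 genes with kept IP and lower input again included division genes. CENPE, the kinesin of kinetochores, had IP levels of 37.2 in the knockout and 54.1 in SiHa, while its input level was 2.34 in the knockout and 21.6 in SiHa. SMC3, of the cohesin ring, had IP levels of 124 in the knockout and 151 in SiHa, and input levels of 11.5 in the knockout and 55.6 in SiHa. DNMT1, the maintenance DNA methyltransferase, had IP levels of 108 in the knockout and 156 in SiHa, and input levels of 11.5 in the knockout and 51.4 in SiHa. The cohesin and condensin list gave 3 members, SMC1A and SMC2 beside SMC3, and the spindle list gave 3, among them CENPE and HMMR. The chromatin list gave 6 members, SMARCA2, SMARCC2, BRD3, BRD9, ANKRD11 and EZH1, out of 98 shared, and the centrosome list gave 5 out of 31. Shared members numbered 21 in the cohesin and condensin list and 38 in the spindle list. Over all shared genes the share in this group was 2.02%. CNTRL, centriolin, had IP levels of 30.4 in the knockout and 34.9 in SiHa, and input levels of 2.15 in the knockout and 8.36 in SiHa. HMGB1, an abundant chromatin protein with an acidic tail, had IP levels of 62.9 in the knockout and 78.5 in SiHa, and input levels of 8.66 in the knockout and 32.6 in SiHa. Its pseudogenes HMGB1P5 and HMGB1P6 were also in the group, and reads may be shared with the parent gene. PTMA, ANP32B and HMGB1 came from the 20 shared acidic histone chaperone and HMG genes, whose medians were -0.13 in IP and -0.84 in input. SFPQ, a nuclear RNA-binding protein of paraspeckles, had IP levels of 301 in the knockout and 326 in SiHa, and input levels of 34.6 in the knockout and 112 in SiHa. For these 42 genes the median log2 fold of IP over input in the authors' deposited tables was 3.88 in the knockout and 2.57 in SiHa. That fold is made from the same IP and input levels that defined the group. Its direction between the lines was thus set by the choice of genes and adds no separate evidence.

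In the opposite group of 33 genes the IP level was kept and the input was higher in the knockout. TMEM30A, a subunit of phospholipid flippases, had IP levels of 96.7 in the knockout and 86.5 in SiHa, while its input level was 82.5 in the knockout and 33.3 in SiHa. GNAS, the stimulatory G protein alpha subunit, had IP levels of 308 in the knockout and 254 in SiHa, and input levels of 267 in the knockout and 147 in SiHa. LRRC8A, a subunit of volume-regulated anion channels, had IP levels of 63.3 in the knockout and 64.9 in SiHa, and input levels of 52.1 in the knockout and 28.1 in SiHa. In all 3 the knockout IP level was close to the knockout input level. EPAS1, the HIF-2 alpha factor, MBTPS1, the Golgi protease that cleaves SREBP precursors, PLS3, an actin bundler, TEX2 and FNDC3B were the other genes with the largest input difference. In the authors' deposited tables the median log2 fold of IP over input for the 33 genes was 1.30 in the knockout and 2.19 in SiHa. The knockout value was near the lowest that the tables list. Here too the direction between the lines was set by the levels that defined the group.

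**Figure D5:**
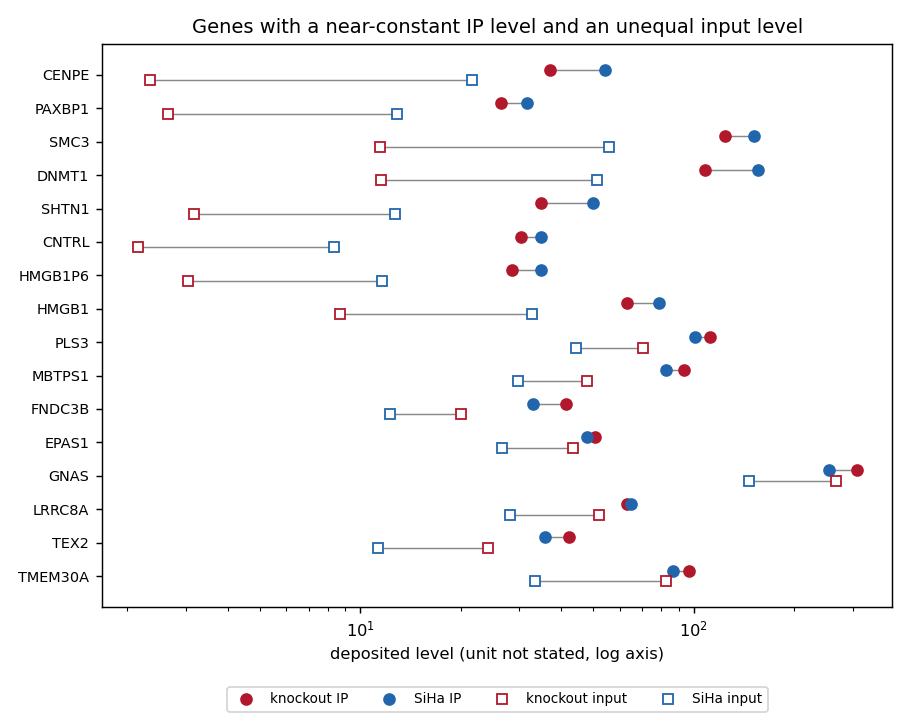
Deposited levels on a log axis for 16 genes with a kept IP level and an input that differs at least 2-fold after centring; filled circles are IP, open squares input, red the knockout and blue SiHa. The circles of each gene lie close together; the knockout input lies left of SiHa input for the 8 genes from CENPE to HMGB1 and right of it for the 8 from PLS3 to TMEM30A.

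The converse also occurred, with IP differing and input kept within 0.5. The knockout IP was at least 2-fold higher with kept input for 88 genes (4.22%) and at least 2-fold lower for 50 genes (2.4%). With no centring the lower group held 18 genes, and with scaling to the implied totals the higher group held 35. The genes named from these groups were chosen after their values were seen. On the higher side, ribosome biogenesis and nucleolar genes gave 8 of their 46 shared members, against 4.22% of all shared genes. AKAP9, a scaffold of the Golgi and centrosome, had IP levels of 119.6 in the knockout and 35.8 in SiHa. SSB, the La protein that binds the ends of RNA polymerase III transcripts, had IP levels of 233 in the knockout and 75.3 in SiHa at input levels of 17.1 in the knockout and 20.6 in SiHa. DEK, a chromatin protein, and EEA1, the early endosome tether, stood at 1.58 and 1.51 in IP. The median deposited log2 fold of these 88 genes was 3.91 in the knockout and 2.44 in SiHa. On the lower side, NEO1, the netrin receptor neogenin, had IP levels of 35.7 in the knockout and 95.9 in SiHa. NF1, the Ras regulator neurofibromin, had 20.4 in the knockout and 45.7 in SiHa. ADNP, QRICH1, ADAR, BMPR2 and ANXA2 were in the same group. The median deposited log2 fold of these 50 genes was 1.57 in the knockout and 2.36 in SiHa. For the 88 and the 50 genes alike, the direction of this difference was set by the levels that defined the group.

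Genes of the m6A pathway showed mostly small differences. Of 20 members listed for either line, 9 were shared. Of these, 1 (11.1%) was at least 2-fold higher in the knockout IP and 0 were lower, against 13.8% and 13.1% of all shared genes. The median was 0.23 in IP and -0.21 in input. METTL14, the partner of the m6A methyltransferase, had an IP level of 11.3 in the knockout and 5.63 in SiHa. The writer complex members VIRMA, ZC3H13 and WTAP were at 0.70, 0.53 and 0.04, and the nuclear reader YTHDC1 was at 0.60. PRRC2A, an m6A reader, was lowest at -0.91. MYC, the transcription factor, had an IP level of 28.2 in the knockout and 82.5 in SiHa and an input level of 8.80 in the knockout and 20.02 in SiHa. USB1, which trims U6 RNA, had an IP level of 207 in the knockout and 88.0 in SiHa with input levels of 8.03 in the knockout and 6.88 in SiHa, a centred log2 input ratio of 0.75. The epithelial markers did not move as 1 group. DSP had an IP level of 53.3 in the knockout and 186 in SiHa and an input level of 5.46 in the knockout and 50.5 in SiHa, while KRT17 was at -0.13 in IP and 0.37 in input.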

How the data were processed

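A stranded mRNA kit was used for all 4 libraries, from RNA enriched with a YTHDF3 antibody and from input RNA, per the labels' protocols. The submitters' processing notes name FastQC 0.11.7 and the builds GRCh38 and hg38. The aligner, counter, strand setting and test were not given in the sources used here.

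Per the file headers, each deposited table gives a log2 fold change of IP over input, a p-value, an adjusted p-value and a level in each library. No unit is given for the levels, which were handled as a signal, and whether the deposited tables were normalized together is not stated. The IP columns carry the cell line's name without the word input and a lane that differs from, or is lacking in, the title, so their assignment rests on that name. In the deposited rows the log2 fold change is 1.00 or more and the p-value at most 0.0500. The totals implied by the deposited p-values were fitted with a binomial sampling model of the levels.

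Genes were joined by Ensembl identifier, with no filter and no pseudocount. Called means at least 2-fold after centring, and kept means within 0.5 (log2). The step was tested on simulated data. Named genes were the 15 highest and 15 lowest ratios at or above the median IP level, the 8 largest input differences in each direction among genes with kept IP, the 2 highest and 2 lowest of each list at that level, and HSP90B1, USB1, MYC and MKI67. Other genes named were chosen after their values were seen. The members, the 42 lists and the motifs were chosen with earlier results of these data known. Gene positions and promoters are from RefSeq (GRCh38.p14), matched by symbol for 2066 genes. Promoters had 1 entry per gene (the first listed), for 82.8% of shared genes. A planned description by protein sequence was not made. Some genes that the rule takes are not reported here. Alternatives were other centring, pseudocounts of 1 and 5, an IP level of at least 10, an adjusted p-value under 0.05, protein-coding genes only, a kept band of 0.25 and leaving out the division lists. Python 3.11.15, numpy 2.4.6, pandas 2.3.3, scipy 1.17.1 and matplotlib 3.10.9 were used.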

Additional observations from a re-analysis of the deposited data

Results flagged for a closer look

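For 35 genes the IP and input ratios pointed in opposite directions by at least 0.5 each (log2, centred), a limit chosen after seeing the data. The difference was not tested, since each side is 1 library. In 22 genes the IP level was higher and the input level lower in the knockout. RSRC2, an arginine and serine rich protein, had IP levels of 58.7 in the knockout and 20.1 in SiHa, and input levels of 7.83 in the knockout and 17.999 in SiHa. CCDC66, a coiled-coil protein of cilia and the spindle, had IP levels of 33.3 in the knockout and 13.8 in SiHa, and input levels of 3.27 in the knockout and 7.78 in SiHa. RNU1-106P, a U1 RNA pseudogene whose reads may come from other copies, stood at 1.63 in IP and -0.93 in input. The group also held NOP58, PSIP1, THOC1, ANP32E and the centrosomal genes CEP57, CEP57L1 and SCLT1.

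In 13 genes the IP level was lower and the input level higher in the knockout. FAT1, a giant cadherin, had IP levels of 62.7 in the knockout and 97.0 in SiHa, and input levels of 45.5 in the knockout and 27.1 in SiHa. USP9X, a deubiquitinase, had IP levels of 53.9 in the knockout and 112 in SiHa, and input levels of 47.0 in the knockout and 37.4 in SiHa. RPN2, of the oligosaccharyltransferase, stood at -0.65 in IP and 0.58 in input. PTPRK, HEG1 and ANO6, all membrane proteins, were in the same group.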

How the results depend on the processing

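Centring decides the counts. With no centring, kept IP with lower input gave 130 genes, kept IP with higher input 3, and lower IP with kept input 18. With scaling to the implied totals, 78 genes were higher and 720 lower in the knockout IP, 136 kept IP with lower input, 2 kept IP with higher input, and 35 were higher in IP with kept input. By construction this moved all 183 named genes and all 39 list medians by a constant, and 13 medians took the other sign. Pseudocounts of 1 and 5 gave 27 and 11 genes with kept IP and lower input, and 16 and 5 with kept IP and higher input. A kept band of 0.25, chosen after seeing the data, gave 25, 13, 41 and 19 for kept IP with lower input, kept IP with higher input, higher IP with kept input and lower IP with kept input. The counts of higher and lower IP stayed within 1.5 times under the other alternatives run, at 208 to 283 higher and 206 to 342 lower. The Spearman rho between IP and input ratios was 0.66 to 0.70. No named gene past the 2-fold limit changed sign. Under the other centrings none could, since the largest moved the median only to -0.63, short of the 2-fold limit. Leaving out a replicate was not possible with 1 library per group. No paired analysis was possible because each group had 1 library. Depth is unknown, so what it limits could not be stated.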

Other observations

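Other gene groups lay between the histone, replication, spindle and cyclin lists and the Golgi genes. For comparison, 13.1% of all shared genes were at least 2-fold lower in the knockout IP and 13.8% at least 2-fold higher. Nucleoporin and nuclear transport genes had 10 of 32 shared members at least 2-fold lower in the knockout IP and 1 higher, with a median of -0.56. NUP205 and NUP98, of the nuclear pore, stood at -1.61 and -1.34, and SENP6, a SUMO protease, at 1.42. Chromatin remodellers and histone-modifying genes had 24 of 98 lower and 5 higher, with a median of -0.40. ARID1A, a subunit of the SWI/SNF remodeller, had IP levels of 26.0 in the knockout and 117 in SiHa, while BPTF, a remodeller subunit, had 148 in the knockout and 71.3 in SiHa. Genes of mRNA decay had 4 of 19 lower and 1 higher, with a median of -0.47. CNOT1, the scaffold of the deadenylase complex, stood at -1.47, and UPF3A, of nonsense-mediated decay, at 1.62. Of 42 shared zinc finger genes, 6 were lower (14.3%, against 13.1% of all shared genes) and 0 higher (against 13.8%), out of 125 in either table. Proteasome subunits had 0 of 11 past the limit in either direction and a median of -0.15 in IP and 0.38 in input. Cytosolic ribosomal protein genes had a median of 0.02 with 1 of 18 higher and 0 lower.

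Centrosome genes had a median of -0.11 in IP and -0.87 in input, with 13 of 31 at least 2-fold lower in input, against 11.3% of all shared genes. PCNT, the pericentriolar scaffold, stood at -1.13 in IP and -2.13 in input, while CEP112 stood at 1.98 in IP and 0.41 in input. Adhesion and matrix genes showed the opposite gap, with a median of -0.22 in IP and 0.56 in input. COL12A1, a fibril-associated collagen, had IP levels of 689 in the knockout and 421 in SiHa, and input levels of 387 in the knockout and 180 in SiHa.

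By chromosome, the median centred IP ratio was lowest on chromosomes 15 and 19, at -0.51 over 74 genes and -0.47 over 112 genes, and highest on chromosome 5, at 0.37 over 116 genes. On chromosome 19, 31 genes were at least 2-fold lower and 3 higher, and without zinc finger genes its median was -0.51. On chromosome 13, 7 of 47 genes were at least 2-fold higher and 0 lower, against 13.8% and 13.1% of all shared genes. Over 5 bins of shared genes from low to high IP level, the median ratio was -0.02, -0.10, -0.06, 0.04 and 0.11. The Spearman rho across genes was -0.05 with promoter GC content and -0.01 with gene span.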
